A study of Mus musculus with 16 samples.

Results

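Dyrk1a and Rcan1 lie on the stretch of mouse chromosome 16 that Dp16 mice carry in 3 copies, while the phosphatase and the transcription factors they act on are encoded elsewhere in the normal 2 copies. Described here are those 2 genes and 8 others, chosen by gene symbol: the 2-copy paralogues Rcan2 and Dyrk1b, the calcineurin subunits Ppp3ca, Ppp3cb and Ppp3r1, and the transcription factors Nfatc2, Nfatc3 and Nfatc4. They are 10 of the 55385 genes in the deposited count table, and all 10 passed the filter on low counts that left 17555 genes for testing. Poly-A RNA was sequenced from the cortex of 16 untreated mice at 9 months of age, 4 in each of 4 groups with 2 females and 2 males. The groups were 5xFAD-Dp16 mice, which carry both alterations, Dp16 mice, 5xFAD mice, and wild-type C57BL/6J mice. Dp16 is a tandem duplication of a mouse segment that corresponds to a large part of human chromosome 21, so its extra dose covers that whole segment and not these 2 genes alone. 5xFAD mice carry amyloid transgenes driven by the Thy1 promoter, that is, mainly in neurons, and develop amyloid plaques. The strain of the groups other than wild-type is not detailed beyond their genotype in the labels used here.

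Calcineurin is a phosphatase switched on by calcium and calmodulin. It strips phosphates from NFAT transcription factors, which then enter the nucleus. DYRK1A, a protein kinase, puts phosphates back on NFAT and thereby favours its export, and RCAN1 binds calcineurin and restrains it, so both triplicated genes are known as brakes on the same pathway. In forebrain neurons calcineurin is abundant and is best known for its part in weakening synapses, and raised DYRK1A and RCAN1 are long-discussed features of trisomy 21.

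Rcan1 has a first promoter and an internal one, and the internal promoter of the human gene is a textbook NFAT target. The windows below are shown because they let the 2 starts be compared with each other and with Rcan2. They are the 250 bases before each RefSeq start shown, 5′ to 3′ on the gene's strand, on GRCm38.p6. First and internal refer to the RefSeq starts. The gene bounds of Rcan1 given below, from another annotation, reach further upstream than its first RefSeq start. Capitals mark GGAAA, the core bound by NFAT, read on either strand, so that it also appears as TTTCC.
Rcan1, first start, chr16:92466170-92466419, minus strand: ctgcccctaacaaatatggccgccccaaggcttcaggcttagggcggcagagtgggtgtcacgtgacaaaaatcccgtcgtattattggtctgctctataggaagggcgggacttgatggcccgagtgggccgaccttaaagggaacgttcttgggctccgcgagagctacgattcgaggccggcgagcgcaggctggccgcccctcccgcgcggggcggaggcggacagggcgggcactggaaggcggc
Rcan1, internal start, chr16:92400079-92400328, minus strand: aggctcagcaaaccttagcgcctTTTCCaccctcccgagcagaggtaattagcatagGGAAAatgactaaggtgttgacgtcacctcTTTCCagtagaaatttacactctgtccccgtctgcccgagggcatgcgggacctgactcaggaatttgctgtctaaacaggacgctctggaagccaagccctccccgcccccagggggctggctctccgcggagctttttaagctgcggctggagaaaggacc
Rcan2, first start, chr17:43801102-43801351, plus strand: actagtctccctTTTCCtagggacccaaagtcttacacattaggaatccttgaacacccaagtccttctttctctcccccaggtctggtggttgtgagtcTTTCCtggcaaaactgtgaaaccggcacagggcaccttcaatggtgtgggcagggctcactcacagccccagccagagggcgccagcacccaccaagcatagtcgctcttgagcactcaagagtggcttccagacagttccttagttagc
The internal Rcan1 window held 3 GGAAA cores, and 6.39% of all 32851 RefSeq windows of this length held at least as many. It also held 1 TGANTCA (at least 1 in 6.75% of windows), the element of AP-1, and 1 TGACGTCA (1.55%), the element of CREB, both searched on both strands and none overlapping a GGAAA core. The first Rcan1 window held 0 GGAAA cores, and the window before the first Rcan2 start held 2, a number reached by 21.4% of windows. The windows of the other 2 Rcan2 starts held 0 GGAAA cores, and the third start had 1 TGANTCA. A single core is common, being present in 55.6% of windows. Windows were found for 9 of the 10 genes, 17 windows in all. At least 3 cores were also present before Ppp3cb, Nfatc4 and the first start of Nfatc2. These matches describe letters only. The deposited counts are per gene, so transcripts from the 2 Rcan1 starts shown cannot be told apart.

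The 16 libraries held 16874481 to 22912168 counts. All marker genes examined for neurons, glia and vessels were detected in the libraries labelled cortex, and summed neuronal markers ran from 5082 to 9251 CPM per library (counts scaled to library total). Markers of striatal projection neurons, a neighbouring region, summed to 206 to 520 CPM. Microglial markers summed to 334 to 670 CPM in 5xFAD-Dp16, 212 to 253 in Dp16, 601 to 866 in 5xFAD and 237 to 302 in wild-type cortex. Choroid plexus markers ran from 8.68 to 2239 CPM across libraries. The dependence of expression on gene length also differed between libraries: the slope of a library's log2 deviation on log2 gene length ran from -0.439 in wild-type replicate 3 to 0.281 in wild-type replicate 1. In the fit with that slope as a covariate, 59% of all genes tested moved with it. Nothing in the labels describes litters or cohorts, so p-values measure the spread between these samples.

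Compared per length, as RPKM (reads per kilobase of gene, scaled to library total) averaged over the 16 libraries, Ppp3r1 and Ppp3ca were the most abundant of the 10. Ppp3r1, the calcium-binding regulatory subunit, averaged 324 RPKM and ranked 200 of the 17555 genes tested. Ppp3ca, the main catalytic subunit in brain, averaged 288 RPKM (rank 225), and Ppp3cb, the second catalytic subunit, averaged 54.2 RPKM (rank 1354). Among the inhibitors, Rcan2 averaged 77.2 RPKM and Rcan1 28.6. Among the kinases, Dyrk1a averaged 14.5 RPKM and Dyrk1b 5.38. The transcription factors were the scarcest, with 0.828 RPKM for Nfatc3, 0.641 for Nfatc2 and 0.131 for Nfatc4, which ranked 17174.

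**Figure D1:**
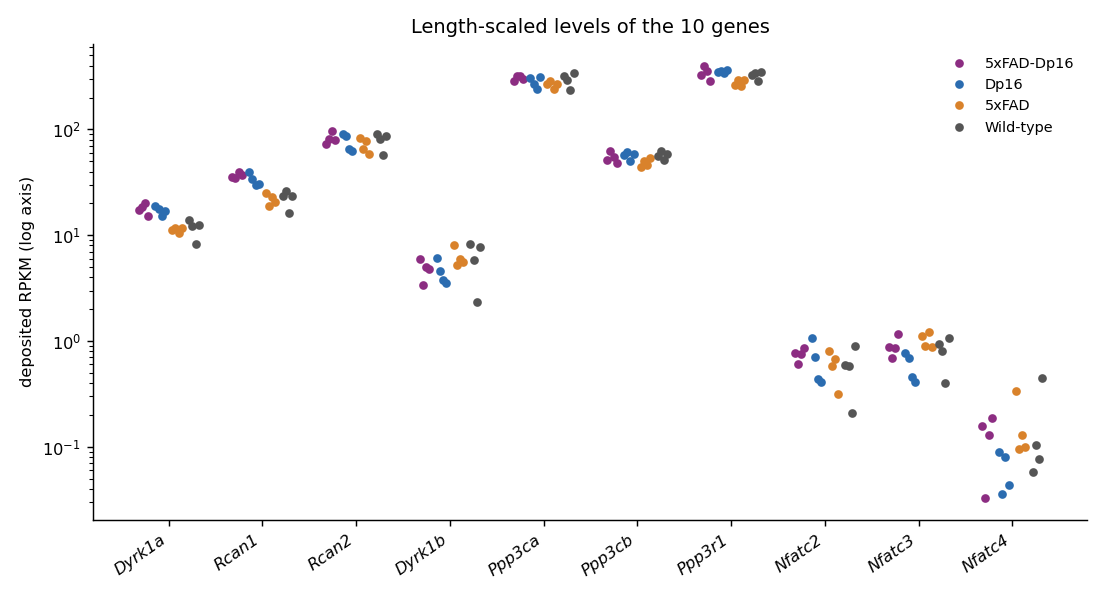
Deposited RPKM (log axis) of the 10 genes in each of 16 cortex libraries, 1 point per library, coloured by group. Ppp3r1 and Ppp3ca sit at the top, with means of 324 and 288 RPKM, and the Nfatc genes at the bottom, with means of 0.131 to 0.828 RPKM.

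Dyrk1a and Rcan1 were higher in cortex with the extra chromosome 16 segment, and none of the other 8 genes was called in the reported fit. Over both backgrounds Dyrk1a rose 1.51-fold and Rcan1 1.56-fold, close to the ratio of 3 copies to 2. The paralogues, the calcineurin subunits and the NFAT genes had smaller differences or larger errors. The comparisons ask how the triplicated regulators and their 2-copy partners differ with the duplication, without and with the amyloid transgenes.

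Dyrk1a (ENSMUSG00000022897, chr16:94570010-94695517, plus strand) encodes the kinase itself. It measured 105, 117, 125 and 93 CPM after TMM normalization in the 4 5xFAD-Dp16 libraries, 115, 109, 101 and 108 CPM in Dp16, 67.8, 73.9, 65.9 and 71.2 CPM in 5xFAD, and 86.8, 75.8, 60.1 and 76.3 CPM in wild-type. Every library with the duplication was above every library without it. The group means were 110 ± 14 CPM in 5xFAD-Dp16, 108 ± 5.61 in Dp16, 69.7 ± 3.55 in 5xFAD and 74.7 ± 11 in wild-type (SD, n = 4 each). By level, 5xFAD-Dp16 and Dp16 did not differ beyond their spread, nor did 5xFAD and wild-type, and the step lay between these pairs.

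Rcan1 (ENSMUSG00000022951, chr16:92391953-92470867, minus strand) encodes the calcineurin inhibitor. It measured 96.1, 96.3, 109 and 98.4 CPM in 5xFAD-Dp16, 107, 93.3, 88.2 and 85.7 CPM in Dp16, 68.2, 53.5, 63.9 and 55.4 CPM in 5xFAD, and 65.2, 70.9, 52.8 and 64.2 CPM in wild-type. Again the 8 libraries with the duplication did not overlap the 8 without it. Means were 99.9 ± 6.14 CPM in 5xFAD-Dp16, 93.5 ± 9.34 in Dp16, 60.2 ± 6.96 in 5xFAD and 63.3 ± 7.58 in wild-type (SD, n = 4 each), in the same 2 tiers as Dyrk1a.

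**Figure D2:**
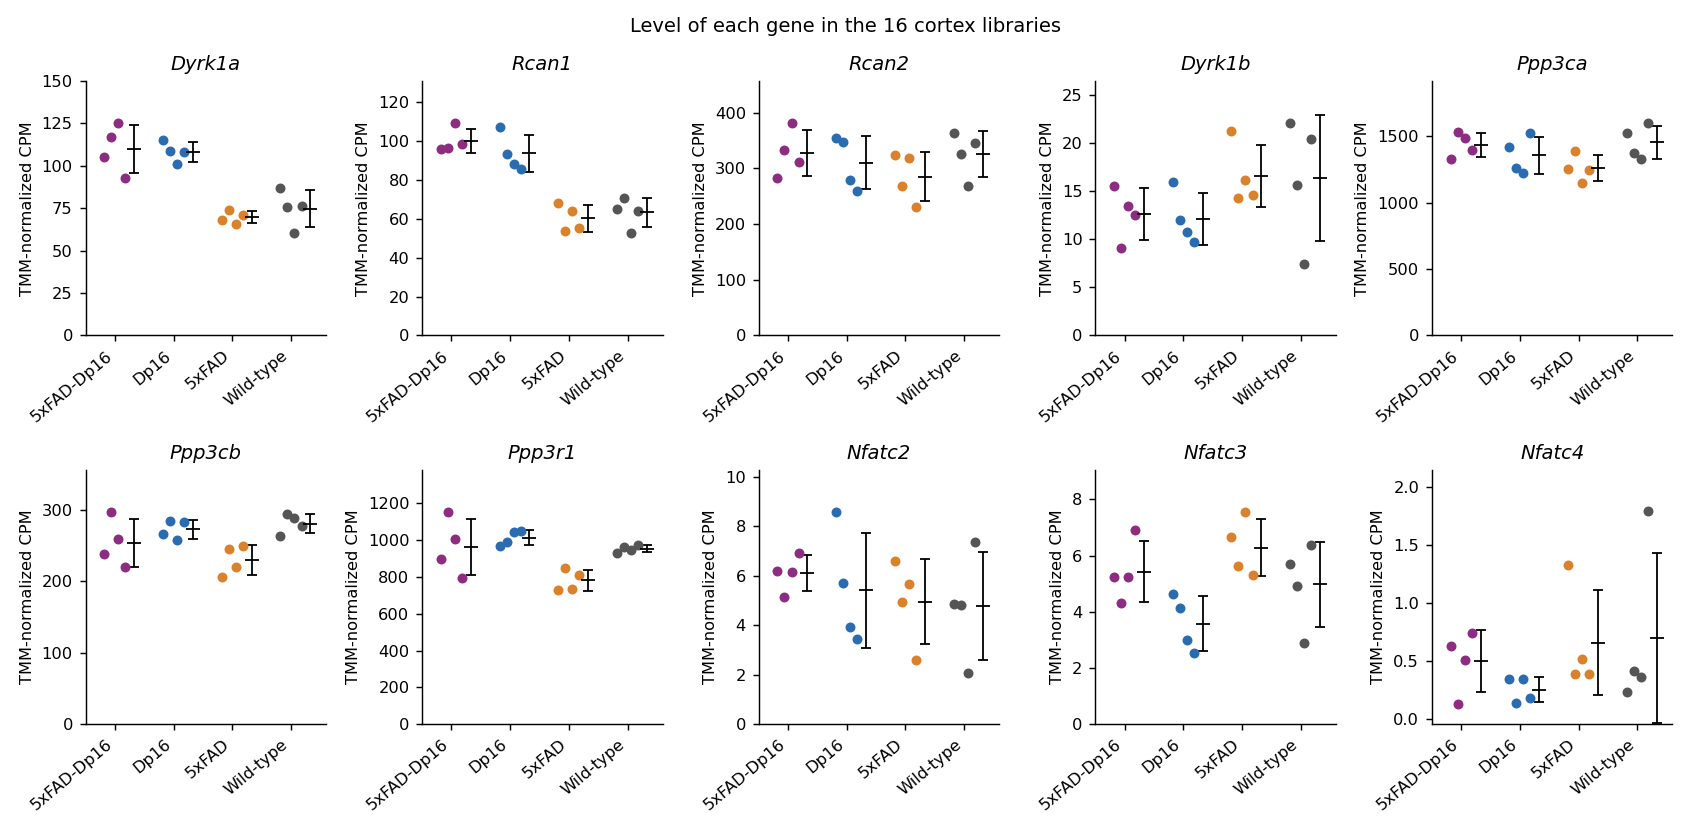
TMM-normalized CPM (linear axes; points are libraries, horizontal marks and bars beside them are means ± SD of 4) of each gene in 5xFAD-Dp16, Dp16, 5xFAD and wild-type cortex. In Dyrk1a and Rcan1 the 8 libraries with the duplication (at least 93 and 85.7 CPM) sit above the 8 without it (at most 86.8 and 70.9 CPM), and in the other 8 genes the 2 sets of libraries overlap.

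With both backgrounds averaged, edgeR's quasi-likelihood test gave Dyrk1a a log2 fold change of 0.59 ± 0.09 (SE; adjusted p = 0.016, 8 libraries against 8). For Rcan1 it was 0.65 ± 0.10 (adjusted p = 0.0159). These were 2 of 15 genes called higher among 17555, or 0.0854% of all genes tested, at a Benjamini-Hochberg adjusted p under 0.05. In either direction 17 genes (0.0968%) were called, 13 of them in the segment. Complete separation of the 8 libraries from the 8, with higher values, was seen in 0.125% of genes. The calls were close to the threshold. Leaving out 1 library kept the log2 fold change of Dyrk1a between 0.56 and 0.65 and that of Rcan1 between 0.60 and 0.68. Dyrk1a then stayed past the threshold in 7 of 16 fits and Rcan1 in 12 of 16, with adjusted p up to 0.0743 and 0.0681. Both calls were lost without wild-type replicate 4, Dp16 replicate 2, 5xFAD-Dp16 replicate 3 or 5xFAD replicate 2, and that of Dyrk1a alone without wild-type replicate 2, 5xFAD-Dp16 replicates 1 or 2, or 5xFAD replicates 1 or 3.

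Within each background the log2 fold changes lay between 0.53 and 0.73, but no member was called with 4 libraries against 4. On the amyloid background, 5xFAD-Dp16 against 5xFAD, the log2 fold change was 0.66 ± 0.13 for Dyrk1a (adjusted p = 0.273) and 0.73 ± 0.14 for Rcan1 (adjusted p = 0.263). For Dp16 against wild-type it was 0.53 ± 0.13 for Dyrk1a and 0.56 ± 0.14 for Rcan1 (adjusted p = 0.8 for each). In both comparisons 0 of 10 members were called, against 0.0057% of all genes, and 3 members with the transgenes and 2 without had an unadjusted p under 0.05 (3.59% and 2.2% of all genes). Without wild-type replicate 3, which is in neither of these groups, both genes were called in 5xFAD-Dp16 against 5xFAD (adjusted p = 0.0425 for Dyrk1a and 0.0397 for Rcan1). DESeq2 called Dyrk1a and Rcan1 in both comparisons, beside 0.0968% of all genes called higher in each. Values of these 2 genes did not overlap between groups in either comparison, whereas 1.73% of all genes were higher without overlap in 5xFAD-Dp16 against 5xFAD and 0.98% in Dp16 against wild-type.

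With the length slope as a covariate, both genes were called in both backgrounds. For 5xFAD-Dp16 against 5xFAD the log2 fold change of Dyrk1a was 0.65 ± 0.08 (edgeR adjusted p = 8.69e-05) and that of Rcan1 was 0.72 ± 0.08 (adjusted p = 2.07e-05). For Dp16 against wild-type they were 0.57 ± 0.08 (adjusted p = 0.00107) and 0.60 ± 0.08 (adjusted p = 0.000392). Over all 28 alternative settings the adjusted p of these 4 values ran from 3.49e-06 to 1. In that fit 0.41% and 0.239% of all genes were called higher. Averaged over backgrounds it called the same 2 members, at 0.61 ± 0.06 for Dyrk1a and 0.66 ± 0.06 for Rcan1 (adjusted p = 9.79e-07 and 2e-07; range over the alternatives 9.41e-10 to 0.0743), beside 0.581% of all genes called higher and 1.03% in either direction. The difference between the backgrounds, tested as an interaction, was 0.12 ± 0.18 for Dyrk1a and 0.17 ± 0.19 for Rcan1 on the log2 scale, and 0 of 10 members were called for it (0% of all genes).

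Both genes lay within the interquartile range of their segment, Dyrk1a near its middle and Rcan1 near its upper end. The 109 segment genes tested had a median log2 fold change of 0.56 over both backgrounds (interquartile range 0.38 to 0.66), and Rcan1 ranked 32 and Dyrk1a 48 among them. The 2-copy members, 8 genes, had a median of 0.05, beside -0.02 for all genes. The ratio of Rcan1 to Dyrk1a did not shift with genotype beyond its spread: there were 0.917 ± 0.101 Rcan1 counts per Dyrk1a count in 5xFAD-Dp16, 0.865 ± 0.0557 in Dp16, 0.869 ± 0.139 in 5xFAD and 0.852 ± 0.0771 in wild-type cortex (SD, n = 4 each).

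**Figure D3:**
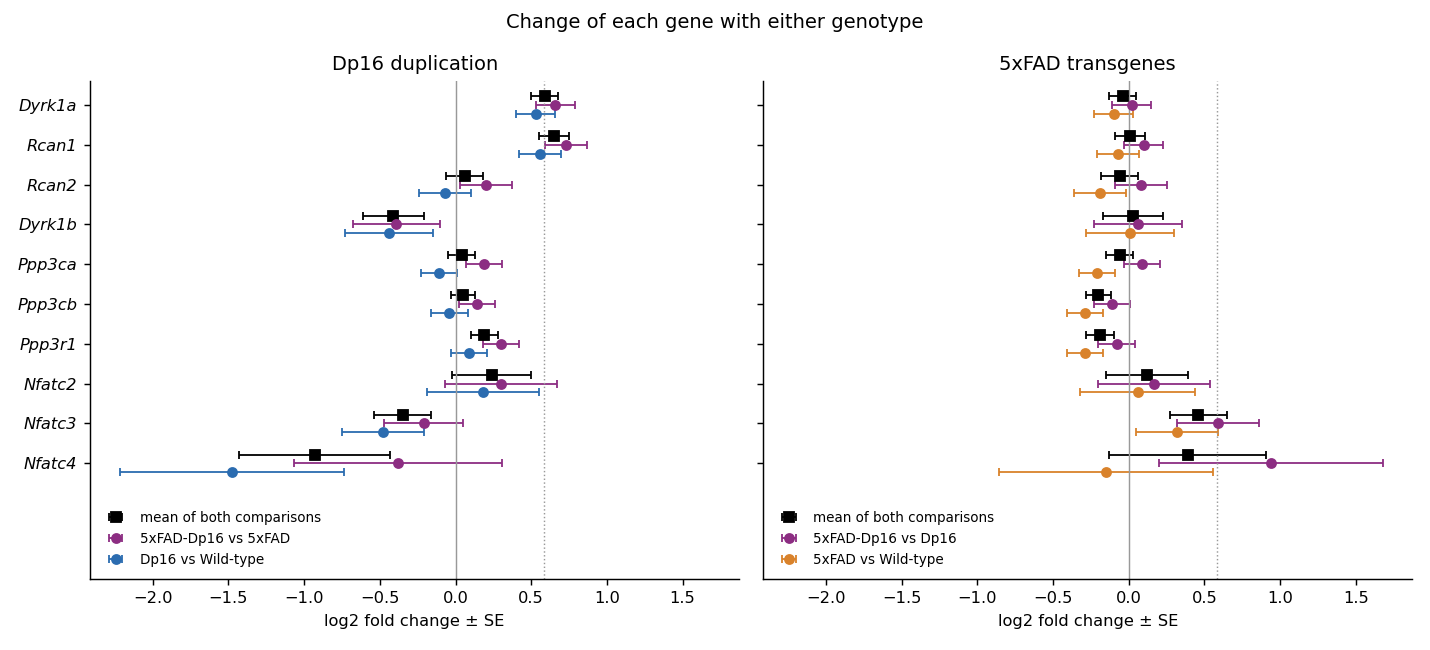
Log2 fold change ± SE (edgeR) of the 10 genes with the Dp16 duplication (left) and with the 5xFAD transgenes (right), each without and with the other alteration and averaged over both (black squares). The dotted line marks the ratio of 3 copies to 2. At left only Dyrk1a (0.59) and Rcan1 (0.65) have black squares near that line, and at right both are near 0 (-0.04 and 0.01).

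Genes whose pattern over the 16 libraries was most like that of Dyrk1a were also from the segment. Likeness was the root mean square difference of mean-centred log2 CPM over 13496 genes, so a small value is a close match. For Dyrk1a the 5 closest were Ttc3 (0.0774), a ubiquitin ligase, Rcan1 (0.145), Ltn1 (0.151), a ribosome quality control ligase, Ifnar1 (0.161), an interferon receptor chain, and Son (0.179), a splicing factor. For Rcan1 they were Ttc3 (0.13), Dyrk1a (0.145), Usp25 (0.147), a deubiquitinase, Ifnar1 (0.159) and Son (0.163). The median gene stood at 0.453 from Dyrk1a and 0.468 from Rcan1.

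The tested protein-coding neighbours were Vps26c and Kcnj6 beside Dyrk1a, and Smim11 and Clic6 beside Rcan1. Their mean log2 fold changes with the duplication were 0.61 ± 0.15 for Vps26c (adjusted p = 0.298), an endosomal sorting subunit, and 0.71 ± 0.22 for Kcnj6 (adjusted p = 0.687), a potassium channel. They were 0.70 ± 0.28 for Smim11 and 1.59 ± 0.62 for Clic6 (adjusted p = 1 for each). The Clic6 mean combined 0.51 ± 0.87 in Dp16 against wild-type and 2.67 ± 0.96 in 5xFAD-Dp16 against 5xFAD. Clic6 is a gene of the choroid plexus. Markers of that tissue had a median log2 fold change of 1.74 in the same averaged comparison, with all 4 above 0 and 0 called. Their sums varied widely within groups, from 9.4 to 2239 CPM in 5xFAD-Dp16, 8.68 to 1271 in Dp16, 18.1 to 624 in 5xFAD and 11.8 to 312 in wild-type. The part of choroid plexus in the Clic6 value was not tested. In the length-slope fit Vps26c (adjusted p = 1.08e-06), Kcnj6 (0.00565) and Smim11 (0.000182) were called higher, and Clic6 was not (0.396).

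Because Rcan2 and Dyrk1b are present in 2 copies in every group, their ratio to the triplicated paralogue was read within each library, where the scaling between libraries cancels. A difference between paralogues in their change with the length slope does not cancel, and the ratio tests had no covariate. Rcan2 encodes a second calcineurin inhibitor. It averaged 327 ± 41.6 CPM in 5xFAD-Dp16, 310 ± 47.6 in Dp16, 285 ± 44.6 in 5xFAD and 326 ± 40.9 in wild-type, with overlapping values and a mean log2 fold change of 0.06 ± 0.12 with the duplication (adjusted p = 1). Rcan1 counts per Rcan2 count were 0.34, 0.288, 0.286 and 0.316 in 5xFAD-Dp16 and 0.209, 0.2, 0.201 and 0.24 in 5xFAD. They were 0.301, 0.269, 0.316 and 0.329 in Dp16 and 0.18, 0.218, 0.197 and 0.186 in wild-type. No library with the duplication overlapped one without it.

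The log2 ratio of Rcan1 to Rcan2 was higher by 0.53 in 5xFAD-Dp16 than in 5xFAD and by 0.64 in Dp16 than in wild-type (two-sided exact permutation p = 0.0286 for each, the smallest that 4 against 4 allows; adjusted over 6 ratio tests, p = 0.0343). Over both backgrounds it was higher by 0.59 (exact permutation p = 0.000408, the smallest possible; adjusted p = 0.00245). Per length, Rcan1 made up 31% ± 1.76 of the summed Rcan1 and Rcan2 RPKM in 5xFAD-Dp16, 30.7% ± 1.85 in Dp16, 23.7% ± 1.57 in 5xFAD and 22.1% ± 1.46 in wild-type (SD, n = 4 each). Rcan2 thus remained the more abundant of the 2 transcripts in every group.

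Dyrk1b, the closest relative of Dyrk1a, was not called with the duplication. It measured 15.5, 9.08, 13.4 and 12.5 CPM in 5xFAD-Dp16, 15.9, 12, 10.7 and 9.66 in Dp16, 21.2, 14.3, 16.1 and 14.6 in 5xFAD, and 22, 15.6, 7.36 and 20.4 in wild-type. Values overlapped, and the mean log2 fold change was -0.41 ± 0.20 (unadjusted p = 0.0589, adjusted p = 1, 8 libraries against 8). With the length slope it was -0.32 ± 0.10 (unadjusted p = 0.00289, adjusted p = 0.124). Dyrk1b moved with the length slope, by 2.1 ± 0.30 log2 per unit of slope (edgeR adjusted p = 2.47e-06), and its value of 7.36 CPM came from wild-type replicate 3, the library of lowest slope. The 3 libraries of lowest slope were wild-type replicate 3 and Dp16 replicates 3 and 4.

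Dyrk1a counts per Dyrk1b count were 6.79, 12.8, 9.32 and 7.45 in 5xFAD-Dp16 and 3.19, 5.19, 4.09 and 4.87 in 5xFAD. They were 7.21, 9.04, 9.41 and 11.1 in Dp16 and 3.94, 4.86, 8.16 and 3.74 in wild-type, where wild-type replicate 3 overlapped the Dp16 range. The log2 ratio was higher by 1.05 in 5xFAD-Dp16 than in 5xFAD (exact permutation p = 0.0286, adjusted p = 0.0343). It was higher by 0.89 in Dp16 than in wild-type, which did not pass (exact permutation p = 0.0571), and by 1.13 without wild-type replicate 3 (adjusted p = 0.0286; range over all alternatives 0.0286 to 0.125). Averaged over backgrounds the difference was 0.97 (exact permutation p = 0.000816, adjusted p = 0.00245). Both the higher Dyrk1a and the lower Dyrk1b estimate enter this ratio. The length slope enters it too, since Dyrk1a changed by 0.45 ± 0.17 and Dyrk1b by 2.1 ± 0.30 log2 per unit of slope. The part of the slope in the ratio was not tested.

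**Figure D4:**
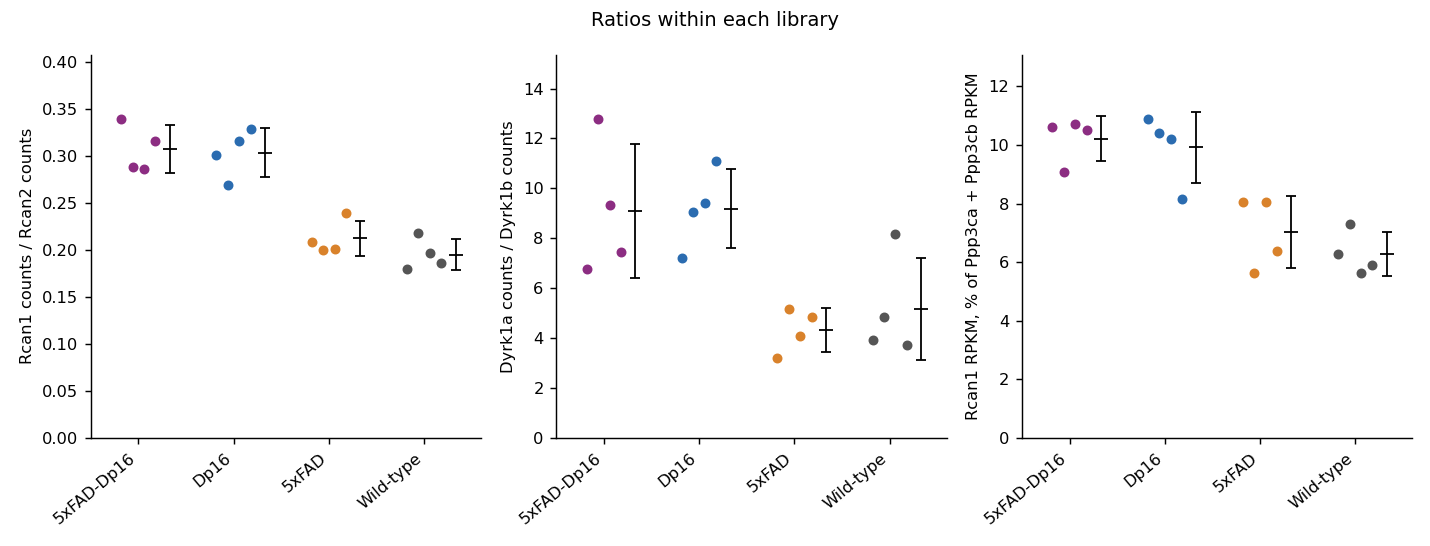
Ratios within each library by group: Rcan1 to Rcan2 counts, Dyrk1a to Dyrk1b counts, and Rcan1 RPKM as a percentage of Ppp3ca plus Ppp3cb RPKM (linear axes from 0; points are libraries, bars mean ± SD of 4). All 8 libraries with the duplication lie above all 8 without it in the first ratio (lowest 0.269, highest other 0.24) and in the third (lowest 8.17, highest other 8.05), while 1 wild-type library at 8.16 reaches into the range of the duplication in the second.

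The phosphatase that RCAN1 restrains was not called with the duplication in the reported fit. Ppp3ca averaged 1438 ± 91.3 CPM in 5xFAD-Dp16, 1357 ± 139 in Dp16, 1259 ± 98.8 in 5xFAD and 1457 ± 125 in wild-type cortex. Its mean log2 fold change with the duplication was 0.04 ± 0.09, and that of Ppp3cb 0.05 ± 0.08 (adjusted p = 1 for each). Ppp3r1 had 0.19 ± 0.09 (unadjusted p = 0.045, adjusted p = 1), made up of 0.30 ± 0.12 in 5xFAD-Dp16 against 5xFAD (unadjusted p = 0.0307) and 0.09 ± 0.12 in Dp16 against wild-type. The difference between the backgrounds was 0.21 ± 0.18 (unadjusted p = 0.254). In the length-slope fit of edgeR, Ppp3r1 had 0.19 ± 0.06 over both backgrounds (unadjusted p = 0.0039, adjusted p = 0.144). For 5xFAD-Dp16 against 5xFAD it had 0.30 ± 0.08 there (unadjusted p = 0.00133, adjusted p = 0.0953). It passed the threshold in 1 of 27 alternative settings over both backgrounds, and in 1 of 28 for 5xFAD-Dp16 against 5xFAD.

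The transcript balance of inhibitor to phosphatase was read per length. Rcan1 RPKM came to 10.2% ± 0.771 of the summed Ppp3ca and Ppp3cb RPKM in 5xFAD-Dp16, 9.94% ± 1.21 in Dp16, 7.03% ± 1.21 in 5xFAD and 6.28% ± 0.738 in wild-type (SD, n = 4 each). Libraries with the duplication ran from 8.17% to 10.9% and those without it from 5.62% to 8.05%. This ratio was not tested. Rcan1 and Rcan2 together came to 33% ± 2.52 in 5xFAD-Dp16, 32.6% ± 5.29 in Dp16, 29.8% ± 5.87 in 5xFAD and 28.4% ± 2.43 in wild-type, with overlapping values. Ppp3ca made up 85% ± 1.07 of the summed Ppp3ca and Ppp3cb RPKM in 5xFAD-Dp16, 83.2% ± 1.33 in Dp16, 84.5% ± 1.15 in 5xFAD and 83.8% ± 1.7 in wild-type, within its spread throughout.

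With the amyloid transgenes, Dyrk1a and Rcan1 were not called and their estimates lay near 0. Ppp3cb and Ppp3r1 had lower values in 5xFAD than in wild-type cortex, past the threshold only when the length slope was in the fit. Averaged over backgrounds, the log2 fold change with the transgenes was -0.04 ± 0.09 for Dyrk1a (adjusted p = 0.942) and 0.01 ± 0.10 for Rcan1 (adjusted p = 0.983). In 5xFAD against wild-type they were -0.10 ± 0.13 and -0.07 ± 0.14, and in 5xFAD-Dp16 against Dp16 0.02 ± 0.13 and 0.10 ± 0.13.

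Ppp3r1 measured 730, 846, 736 and 813 CPM in 5xFAD and 929, 965, 946 and 973 CPM in wild-type cortex. Ppp3cb measured 206, 246, 220 and 250 CPM in 5xFAD and 264, 294, 289 and 277 CPM in wild-type. For both genes every 5xFAD library was below every wild-type library, a separation seen in 1.52% of all genes. The log2 fold changes were -0.29 ± 0.12 for Ppp3r1 (unadjusted p = 0.0336, adjusted p = 0.605) and -0.29 ± 0.12 for Ppp3cb (unadjusted p = 0.0288, adjusted p = 0.568), so neither was called. Ppp3ca had -0.21 ± 0.12 with overlapping values. Among the 10 members 0 were called, against 0.0114% of all genes called lower and 1.5% called higher.

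In the length-slope fit both subunits were called lower in 5xFAD than in wild-type, at -0.29 ± 0.08 for Ppp3r1 (edgeR adjusted p = 0.0399) and -0.28 ± 0.08 for Ppp3cb (adjusted p = 0.027), together with 1.29% of all genes. Over all 28 alternatives the adjusted p of these values ran from 0.00648 to 1. Neither subunit itself moved with the slope at the threshold (-0.23 log2 per unit, adjusted p = 0.244, and -0.29, adjusted p = 0.115). The residual spread over all genes was smaller in that fit, with a biological coefficient of variation of 0.161 against 0.292 without the covariate.

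Summed neuronal markers had lower values in the same libraries, though no single marker was called. The sum ran from 5082 to 5891 CPM in 5xFAD and from 6361 to 9251 CPM in wild-type, with 0 of 4 markers above 0 on the log2 scale and a median log2 fold change of -0.34. The 5 inhibitory neuron markers, also all below 0 and with 0 called, had a median of -0.64. Their sums overlapped, at 668 to 967 CPM in 5xFAD and 941 to 1537 CPM in wild-type. The 3 excitatory neuron markers were below 0 as well (median -0.34), and their sums also overlapped. These ran from 746 to 955 CPM in 5xFAD and from 459 to 1227 CPM in wild-type. Of the striatal projection neuron markers 0 of 5 were above 0 and 0 were called (median -0.37). With the length slope 2 of 4 neuronal, 3 of 5 inhibitory and 0 of 3 excitatory neuron markers were called lower. Of the 5 microglial markers 4 were called higher without the covariate. In bulk cortex, fewer cells of a type and less RNA per cell cannot be told apart, and the part of the neuronal share in the lower calcineurin values was not tested.

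On the Dp16 background the subunits were not separated. Ppp3r1 measured 898, 1152, 1006 and 794 CPM in 5xFAD-Dp16 and 967, 991, 1042 and 1050 CPM in Dp16. Ppp3cb measured 238, 297, 260 and 220 CPM in 5xFAD-Dp16 and 266, 285, 258 and 283 CPM in Dp16. The 5xFAD-Dp16 libraries spread on both sides of the Dp16 range for Ppp3r1 and overlapped it for Ppp3cb. The log2 fold changes were -0.08 ± 0.12 for Ppp3r1 and -0.11 ± 0.12 for Ppp3cb (adjusted p = 0.98 for each), and 0 members were called beside 0.387% of all genes. The interaction did not pass for either (0.21 ± 0.18 and 0.18 ± 0.17, adjusted p = 1), so the 2 backgrounds are not shown to differ. Averaged over backgrounds, Ppp3cb had -0.20 ± 0.08 (adjusted p = 0.5), with 0 members called beside 2.18% of all genes. It was called at -0.18 ± 0.05 in the length-slope fit (adjusted p = 0.0433; range over alternatives 0.0105 to 0.863).

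In the interaction all 10 members had estimates above 0, that is, a transgene effect less negative or more positive on the Dp16 background, with a median of 0.24 for the 2-copy members and 0.04 for all genes. This sign was not particular to them. It was shared by 37 of 47 further pathway genes described below (median 0.14). Of the markers, 4 of 4 neuronal, 3 of 3 excitatory and 5 of 5 inhibitory neuron genes were above 0 (medians 0.25, 0.25 and 0.28). So were 5 of 5 striatal projection neuron and 4 of 4 choroid plexus genes, with larger medians (0.63 and 0.99). Markers of endothelium, precursors and oligodendrocytes were mixed, with 2 of 3, 2 of 3 and 2 of 4 above 0. Of astrocyte and microglial markers, 0 of 4 and 0 of 5 were above 0. The part of tissue content in this sign was not tested. The largest among well-expressed members was that of Ppp3ca, at 0.30 ± 0.17 (unadjusted p = 0.0999). In this fit none had an unadjusted p under 0.05, against 1.36% of all genes. Ppp3ca alone did in the length-slope fit (0.29 ± 0.11, unadjusted p = 0.0184, adjusted p = 0.998), beside 4.4% of all genes, and in DESeq2 (0.29 ± 0.12, unadjusted p = 0.0167, adjusted p = 1), beside 2.01%. Of the 10 members, 8 were above 0 with the length slope, and 24 of the 47 pathway genes. The 2 Dp16 comparisons and the 2 transgene comparisons share libraries with this term.

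The NFAT transcription factors were read at low depth and none was called. Nfatc3 measured 5.25, 4.3, 5.24 and 6.91 CPM in 5xFAD-Dp16, 4.64, 4.14, 2.98 and 2.55 in Dp16, 6.67, 5.62, 7.55 and 5.31 in 5xFAD, and 5.7, 4.91, 2.9 and 6.39 in wild-type. Dp16 was the lowest group by mean, at 3.58 ± 0.976 CPM, and 5xFAD the highest, at 6.29 ± 1.02 CPM. The log2 fold change with the transgenes averaged 0.46 ± 0.19 (unadjusted p = 0.0282, adjusted p = 0.468), and that with the duplication -0.35 ± 0.19 (unadjusted p = 0.0844, adjusted p = 1). In the length-slope fit the 2 values were 0.40 ± 0.13 (adjusted p = 0.0856) and -0.30 ± 0.13 (adjusted p = 0.338), still short of the threshold.

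Nfatc2 measured 6.19, 5.15, 6.17 and 6.91 CPM in 5xFAD-Dp16, 8.58, 5.73, 3.92 and 3.46 in Dp16, 6.62, 4.93, 5.67 and 2.59 in 5xFAD, and 4.88, 4.81, 2.05 and 7.38 in wild-type. All groups overlapped, and the log2 fold change was 0.24 ± 0.26 with the duplication and 0.12 ± 0.27 with the transgenes (adjusted p = 1 and 0.943). Nfatc4 stayed between 0.134 and 1.79 CPM, with 3 to 38 counts per library, and had errors of 0.50 and 0.52 on its log2 fold changes of -0.93 and 0.39 (adjusted p = 1 and 0.873).

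Nfatc2 and Nfatc3, like Dyrk1b, followed the length slope of the library, as did 59% of all genes tested. They changed by 2.44 ± 0.52 and 1.67 ± 0.41 log2 per unit of slope (edgeR adjusted p = 0.000357 and 0.00146). Rcan2, Rcan1 and Dyrk1a were also called on the slope, with smaller changes. These were 0.81 ± 0.20, 0.62 ± 0.16 and 0.45 ± 0.17 (adjusted p = 0.00118, 0.00243 and 0.0256). The lowest wild-type value of Dyrk1a, Rcan1, Rcan2, Dyrk1b, Ppp3ca, Nfatc2 and Nfatc3 came from wild-type replicate 3. What set the slope was not tested.

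**Figure D5:**
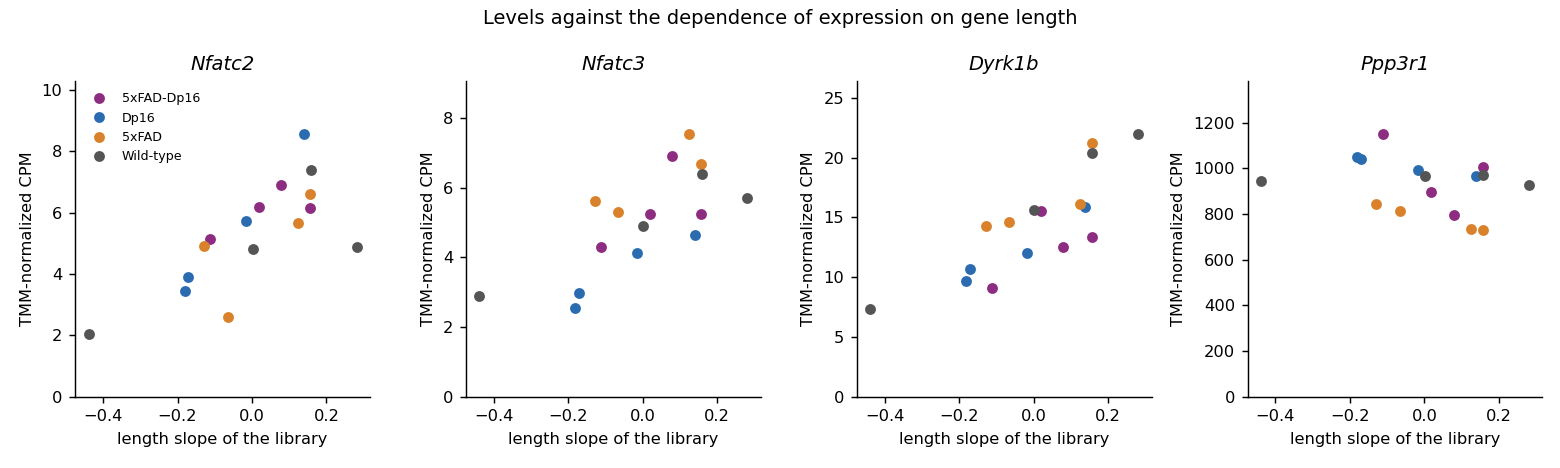
TMM-normalized CPM of Nfatc2, Nfatc3, Dyrk1b and Ppp3r1 against the length slope of the library (log2 deviation per log2 of gene length; 1 point per library, coloured by group). Wild-type replicate 3, at a slope of -0.439, is the lowest library for Nfatc2 (2.05 CPM) and Dyrk1b (7.36 CPM), while Ppp3r1 stands there at 946 CPM, inside its own wild-type range of 929 to 973.

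Around these 10 genes, 53 further pathway genes were examined by role, of which 47 were tested. With the duplication 0 of the 47 were called on either background, against 0.0057% of all genes, and 0 over both, against 0.0968%. In the length-slope fit 0 were called over both, against 1.03% of all genes, and at such shares a count of 0 does not set the list apart. Their median log2 fold change over both backgrounds was 0.00, with 22 of 47 above 0, beside -0.02 for all genes. Within the DYRK family and the partners of DYRK1A, the genes of smallest p were Dyrk3, a relative of Dyrk1a outside the segment, at 0.43 ± 0.23 (unadjusted p = 0.0879), and Lin52, a DYRK1A substrate in the DREAM complex, at -0.17 ± 0.18. Among inhibitors and anchors they were Fkbp1a, the partner through which tacrolimus blocks calcineurin, at 0.21 ± 0.10 (unadjusted p = 0.0551), and Rcan3 at -0.09 ± 0.14. Ppp3cc, the third catalytic subunit, had 0.09 ± 0.13, and the calcineurin-like Chp1 had 0.03 ± 0.12.

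The genes of smallest p in the other roles were not called either. The calmodulin genes Calm2 and Calm3 had log2 fold changes of 0.18 ± 0.20 and 0.12 ± 0.10 with the duplication, and the kinases Prkaca and Mapk8 had 0.14 ± 0.14 and 0.13 ± 0.11. Plcg2 and Plcg1, phospholipases upstream of calcium release, had -0.32 ± 0.31 and -0.20 ± 0.15, and the calcineurin substrates Crtc2 and Tfeb had -0.19 ± 0.12 and -0.18 ± 0.17. Stim2, a calcium sensor of the endoplasmic reticulum named after its values were seen, had 0.14 ± 0.17 (adjusted p = 1) and, just short of the threshold in the length-slope fit, 0.21 ± 0.05 (adjusted p = 0.053). Nfat5, the family member that calcineurin does not control, had -0.22 ± 0.24. Of 10 NFAT target genes known from other tissues, 5 were tested and 0 were called. Ptgs2 had 0.25 ± 0.16 and Bdnf 0.11 ± 0.12.

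With the transgenes 0 of the 47 were called without the covariate, and their median over both backgrounds was 0.00 with 24 of 47 above 0. In the length-slope fit 1 was called higher and 2 lower over both backgrounds (4.63% and 1.36% of all genes). Plcg2, which in brain is mainly a microglial gene, averaged 5.91 ± 2.66 CPM with the transgenes and 2.46 ± 0.901 CPM without (SD, n = 8 each). Its log2 fold change was 1.17 ± 0.32 (adjusted p = 0.0831), and 1.08 ± 0.21 in the length-slope fit (adjusted p = 0.00174). All 5 microglial markers were called higher in the same comparison, and their part in the Plcg2 value was not tested.

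Bdnf, a neurotrophin gene, averaged 19.1 ± 2.65 CPM with the transgenes and 25 ± 3.58 CPM without (SD, n = 8 each). Its log2 fold change was -0.39 ± 0.12 (adjusted p = 0.165), and -0.40 ± 0.10 in the length-slope fit (adjusted p = 0.0186). Calm2 averaged 2959 ± 599 CPM with the transgenes and 3915 ± 1307 CPM without, at -0.41 ± 0.20 (adjusted p = 0.607), and -0.25 ± 0.07 in the length-slope fit (adjusted p = 0.0249). Values of both genes overlapped between libraries with and without the transgenes. In the same length-slope fit 2 of 4 neuronal and 3 of 5 inhibitory neuron markers were called lower (0 of each in the fit without it), with medians of -0.21 and -0.36. Of the excitatory neuron markers 0 of 3 were called in either fit, with medians of -0.18 with the slope and -0.07 without. The part of neuronal markers in the Bdnf and Calm2 values was not tested.

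Among the remaining roles the genes of smallest p with the transgenes were not called in either fit. They included Dyrk4 at 1.79 ± 0.63 (unadjusted p = 0.0129, adjusted p = 0.296, mean level 0.161 RPKM), Mapk8 at -0.24 ± 0.11 (unadjusted p = 0.0463), the calcium entry channel gene Orai1 at 0.50 ± 0.26 and Ppp3cc at -0.24 ± 0.13. The other 10 genes of this selection (Dyrk3, Bad, Crtc2, Ptgs2, Fkbp1a, Rcan3, Csnk1a1, Calm3, Nfat5 and Chp1) ran from -0.37 ± 0.23 for Dyrk3 to 0.18 ± 0.12 for Crtc2, and none had an unadjusted p under 0.05.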

How the data were processed

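The authors deposited raw read counts per gene and, separately, RPKM values, for 55385 genes in 16 libraries. Per the labels, total RNA was taken up in TRIzol and made into strand-specific poly-A libraries. Per the submitters' processing notes, reads were handled with HISAT2 2.1.0 and HTSeq 0.6.1 on GRCm38, besides FastQC 0.11.5 and SAMtools 1.5; settings, including strand, are not given in the sources used here. The RPKM values are those counts divided by gene length and library total: implied lengths deviated from whole numbers by at most 8.5e-09. Genes overlapping members held few counts (3747 for Wdr92 against 306701 for Ppp3r1, and 519 for 1810062O18Rik, antisense to Ppp3cb, against 85740). Coordinates are from GENCODE M21.

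Counts were tested with edgeR 4.0.16 (R 4.3.3; TMM, filterByExpr at its minimum count of 10, robust quasi-likelihood, sex as covariate, all 16 libraries in 1 fit) over 17555 genes with Benjamini-Hochberg adjustment at 0.05. The 7 contrasts were each Dp16 and each 5xFAD comparison, their means over both backgrounds, and the interaction. Standard errors of fold changes were derived from the F statistic. The length slope of a library was the regression coefficient, on the log2 of gene length, of its deviations from each gene's mean, using protein-coding genes above a mean log2 CPM of 2. Alternatives were DESeq2 1.42.0, limma 3.58.1 on log2(RPKM + 0.1) or log2(RPKM + 1), other normalization, filters, covariates and samples. Ratios were compared by exact permutation. The test was also run on simulated counts with known fold changes in the libraries with the duplication. These counts held no length slope and no transgene effect, so they do not cover such differences between libraries. The outcome is not reported here.

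Members, gene lists, tests and the length slope were chosen with earlier results of these data known. Named were all members, pathway genes called in either fit or otherwise the 2 of smallest p per role for each genotype, the 5 genes of most similar pattern, and the tested neighbours of Dyrk1a and Rcan1. The sex label matched in 16 of 16 libraries. Replicates within a group differed by more than sampling noise (chi-square per degree of freedom 16.6 to 286).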

Additional observations from a re-analysis of the deposited data

Results flagged for a closer look

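Nfatc4, with 3 to 38 counts per library, had 1 library far from the others in each of 2 groups. In 5xFAD cortex replicate 1 stood at 1.33 CPM, against 0.394 to 0.524 CPM in the other 3 libraries. In wild-type cortex replicate 4 stood at 1.79 CPM, against 0.235 to 0.413 CPM. Both libraries had a positive length slope, of 0.156 and 0.158. These were 2 of 48 groups examined for a sample far from the rest, and chance alone gives about 1 in 20.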

How the results depend on the processing

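Across 28 alternative settings and 70 results on single members, 1887 of 1930 values kept their side of the threshold, 28 passed it newly and 15 lost it. Where called, 0 changed sign, but estimates that were not called did in some settings. For Nfatc2 in Dp16 against wild-type, leaving out each library gave -0.2 to 0.48. The cause of the changes named here was not tested. For Dp16 against wild-type, 0 members were called in the reported fit and 2 with the length slope, with DESeq2 and with the replicate block together with the length slope; log2 fold changes of Dyrk1a and Rcan1 were then 0.57 and 0.60, 0.53 and 0.56, and 0.57 and 0.60. Leaving out each library gave 0 calls, with 0.48 to 0.65 for Dyrk1a and 0.47 to 0.62 for Rcan1. For 5xFAD-Dp16 against 5xFAD, 0 members were called in the reported fit and 2 with the length slope (0.65 and 0.72), DESeq2 (0.65 and 0.73), only the 2 groups compared (0.64 and 0.73) and without the 3 libraries of lowest slope (0.65 and 0.73). The replicate block with the length slope called 3, adding Ppp3r1 (Dyrk1a 0.65, Rcan1 0.72, Ppp3r1 0.29). Leaving out each library gave 0 to 2 calls, 2 of them without wild-type replicate 3, and 0.60 to 0.71 and 0.67 to 0.80. Over both backgrounds 2 members were called, and 0 by limma on log2(RPKM + 0.1) with no filter (0.61 and 0.67, adjusted p = 0.0656 for each, more genes being tested). The replicate block with the length slope called 3, adding Ppp3r1 (0.18, adjusted p = 0.043). Leaving out each library gave 0 to 2 calls, with 0.56 to 0.65 and 0.60 to 0.68.

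For 5xFAD against wild-type, 0 members were called, and 2 (Ppp3cb and Ppp3r1) with the length slope and with the replicate block and length slope. Over both backgrounds the transgene effect called 0, then 1 (Ppp3cb) with the length slope and with DESeq2, and 2 with the block and length slope. For 5xFAD-Dp16 against Dp16 and the interaction, 0 members were called in each setting run. Whether the replicate numbers pair the libraries was not settled. Of 24 same-numbered pairs, 9 correlated above 0.1 (range -0.354 to 0.514), and 7 of 16 libraries correlated best with their own number. No chance level was computed for these counts. The replicate block alone changed no call of a single member; with permutation within numbers, which with 4 pairs cannot go below 0.125, the ratio differences of 0.64 and 0.53 (Rcan1 to Rcan2) and 1.05 (Dyrk1a to Dyrk1b) had an adjusted p of 0.125. Without the 3 libraries of lowest slope, the ratio of Rcan1 to Rcan2 differed by 0.55 between Dp16 and wild-type (adjusted p = 0.1, the number of libraries limiting it). Leaving out each library, the ratio of Dyrk1a to Dyrk1b differed by 0.76 to 1.13 in that comparison. Over all genes, the number called ranged from 0 to 59 for Dp16 against wild-type (1 reported), 1 to 365 for 5xFAD-Dp16 against 5xFAD (1), 4 to 419 over both (17), 112 to 1518 for 5xFAD against wild-type (266), 23 to 256 for 5xFAD-Dp16 against Dp16 (68), 313 to 1695 over both (383) and 0 to 25 for the interaction (0). Nfatc4 had 3 to 38 counts per library, which limits its precision, and counts per gene do not separate transcript forms.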
